A study of Mus musculus with 14 samples.

Results

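The genes described here encode the subunits of sodium and potassium channels. They were taken as every row of the tables whose symbol is Scn, a number and a or b, or Kcn, letters and a number, which gave 107 of 56941 gene IDs. Of these, 14 were sodium channel genes (10 pore-forming alpha subunits and 4 beta subunits) and 93 were potassium channel genes, and together they were sorted by symbol into 17 families. The data are 14 RNA-seq libraries of polyadenylated RNA from the forebrain of mouse embryos. Cerebral cortex at embryonic day (E) 18.5 gave 4 double conditional knockout (dcKO) libraries and 4 libraries labelled ff, and telencephalon at E12.5 gave 3 dcKO and 3 ff libraries. In dcKO embryos floxed Sbno1, a homologue of the fly gene strawberry notch, and floxed Trp53, which encodes p53, were combined with Emx1-Cre, a driver active in the progenitors of the dorsal telencephalon. The ff group, called dfl in the tables, was read as the floxed alleles of both genes without the driver, and the labels do not say how many copies of each allele an embryo carried. No group had the driver alone or either deletion alone, so effects of the driver, of Sbno1 and of Trp53 cannot be told apart. The labels do not say whether a library came from 1 embryo or from a pool.

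Voltage-gated sodium channels carry the inward current of the action potential, and each channel is an alpha subunit that forms the pore and can bind beta subunits. Potassium channels set the resting potential, repolarise the membrane and space the spikes, and they include voltage-gated, calcium- and sodium-activated, inward rectifier and two-pore-domain channels. In developing cortex newborn neurons are barely excitable, and channel transcripts build up as neurons mature.

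Total expected counts were 5.98 M in E18.5 dcKO replicate 1 and 4.92 M in E12.5 ff replicate 1, against 48.6 to 82.0 M and 42.0 to 67.4 M in the other libraries of each stage. E18.5 dcKO replicate 3 was low in the choroid plexus gene Ttr, at 1.82 TPM (transcripts per 1000000) against 1401 to 3203 TPM in the other 7 libraries. All dcKO libraries were male, and E18.5 ff replicates 2 and 4 and E12.5 ff replicate 3 were female. A chi-square over its degrees of freedom was taken for each pair of libraries within a group. E12.5 dcKO replicates 2 and 3 were far more alike than any other pair, all of which lay between 16.65 and 41.65. Whether these replicates are independent was not tested. The E12.5, stage and interaction SD, SE and p-values below treat them as independent. At E12.5 Sbno1 averaged 70.2 ± 5.77 CPM (counts per 1000000) in dcKO and 106 ± 9.29 CPM in ff (SD, n = 3 each; adjusted p = 0.051). At E18.5 it averaged 72.4 ± 4.24 CPM in dcKO and 73.6 ± 1.31 CPM in ff (SD, n = 4 each; adjusted p = 0.68), so it did not separate the genotypes, and counts over the whole gene do not show the floxed part. Trp53 averaged 65.0 ± 6.25 CPM in dcKO and 75.0 ± 2.53 CPM in ff at E18.5, where the groups overlapped slightly (log2 fold change -0.20, adjusted p = 0.032), and 106 ± 2.32 CPM in dcKO and 123 ± 15.4 CPM in ff at E12.5 (adjusted p = 0.22). Emx1 separated the genotypes, at 15.1 ± 0.883 CPM in dcKO and 26.4 ± 1.26 CPM in ff at E18.5 (adjusted p = 8.3e-06). For E18.5, dcKO below always means the libraries labelled dcKO. Titles and descriptions disagreed on group or embryo for 11 of 14 samples, and columns were grouped by their own genotype word.

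Channel transcripts were more abundant in the older tissue. Their summed level was 961 to 1071 TPM in dcKO and 992 to 1094 TPM in ff at E18.5, against 430 to 503 TPM in dcKO and 409 to 520 TPM in ff at E12.5. TPM is the authors' measure per transcript length, so it is used wherever genes or stages are compared in level. At E18.5, 32 members in dcKO and 33 in ff averaged at least 10 TPM, against 14 in dcKO and 13 in ff at E12.5. The highest level in every group belonged to Scn3b, a sodium channel beta subunit, at 97.2 TPM in dcKO and 125.5 TPM in ff at E18.5, and 36.9 TPM in dcKO and 34.0 TPM in ff at E12.5. The 10 most abundant members held 42.7% of the members' TPM in dcKO and 44.6% in ff at E18.5. At the other end, 26 members in dcKO and 28 in ff stayed under 1 TPM at E18.5.

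**Figure D1:**
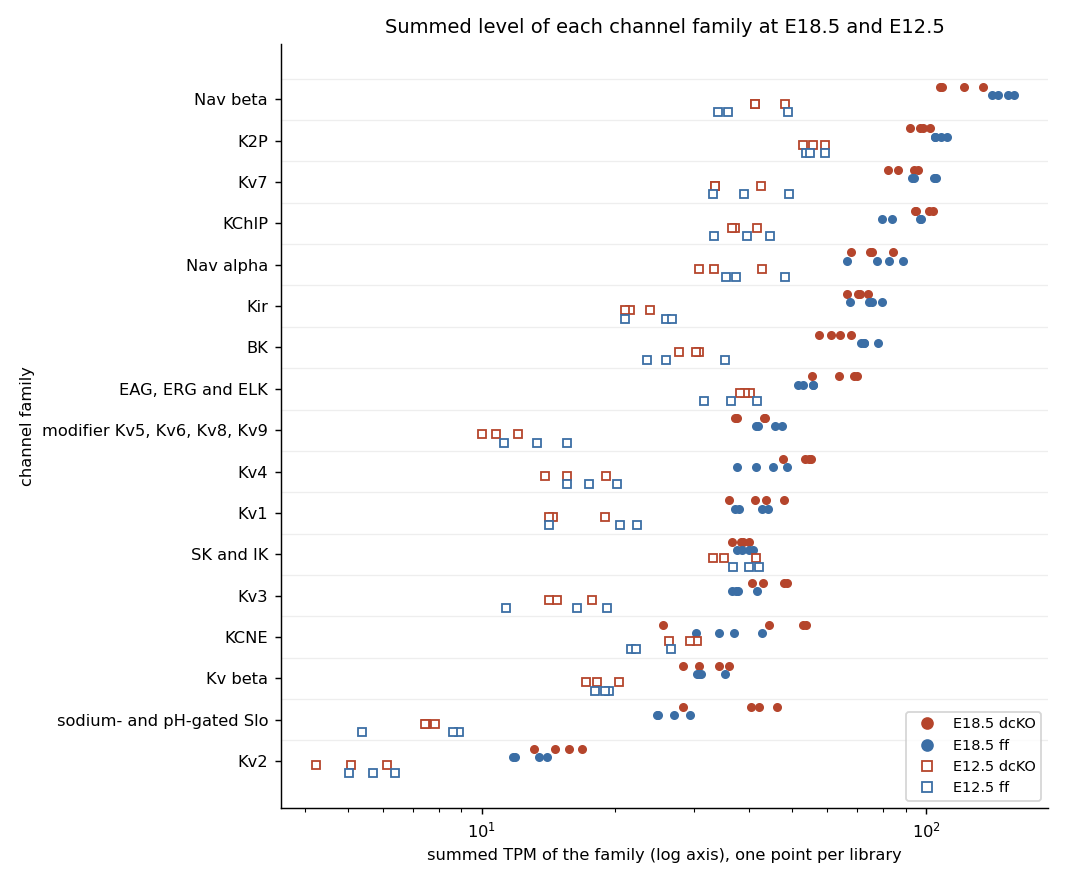
Summed level of the members of each channel family in TPM (x axis, log scale), 1 point per library, with E18.5 dcKO, E18.5 ff, E12.5 dcKO and E12.5 ff drawn from top to bottom within each family. Sodium channel beta subunits have the highest sum at E18.5 (107.6 to 134.4 TPM in dcKO, 140.8 to 157.3 TPM in ff), and small-conductance and intermediate-conductance calcium-activated channels (SK and IK) are the family whose sums overlap between all groups.

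In ff, 84 of 95 members tested differed between E18.5 and E12.5, 75 of them higher and 9 lower at E18.5 (edgeR's quasi-likelihood test over all genes, adjusted p under 0.05). Of all genes tested 61.4% differed, 31.5% higher and 29.9% lower. The median log2 fold change of the members was 1.28, against 0.00 over all genes. In dcKO, 80 of 95 differed, 72 higher and 8 lower, with 62.2% of all genes differing, 30.9% higher and 31.3% lower, and medians of 1.18 for the members and 0.01 for all genes. Values of the 2 stages did not overlap for 78 of 95 members in each genotype, against 55.8% of all genes in ff and 60.9% in dcKO. The tissues also differ in what was dissected. Summed TPM of 7 diencephalon markers was 20.2 to 24.5 in dcKO and 13.4 to 17.7 in ff at E18.5, against 308 to 357 in dcKO and 218 to 377 in ff at E12.5, and all 7 were lower at E18.5 in ff. Of 10 pan-neuronal markers 9 were higher at E18.5 in ff and 1 lower. The part of either in the stage differences was not tested.

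The largest stage differences in ff were in potassium channel genes. Kcnj4, an inward rectifier of forebrain neurons, stood at 7.50, 6.38, 6.15 and 5.34 TPM in E18.5 ff libraries and at 0.54, 0.22 and 0.13 TPM in E12.5 ff libraries. The stages were far apart, with a log2 fold change of 4.94 (SE 0.31, adjusted p = 7.7e-10), and it was 3.75 in dcKO. Kcnq5, a subunit of the M-current channel that restrains repetitive firing, averaged 7.48 ± 0.379 TPM at E18.5 and 0.650 ± 0.139 TPM at E12.5 in ff (SD, n = 4 and 3), a log2 fold change of 3.65. Kcnip2, a calcium-binding partner of A-type potassium channels, averaged 25.9 ± 1.61 TPM at E18.5 and 3.13 ± 0.689 TPM at E12.5 in ff (log2 fold change 3.22). Kcnk4, a mechanosensitive two-pore-domain channel, had a log2 fold change of 3.60 in ff, Kcns1 of 3.49 and Kcnv1 of 3.11. The Kcnk4 value rests on rounded expected counts of 0, 16 and 5 in E12.5 ff libraries. Kcnk4 also shares 13.1% of its exon length with Catsperz on the same strand. Kcns1 and Kcnv1 are silent subunits that change the gating of other potassium channels without forming channels alone. In their family 8 of 9 tested members were higher, with a median of 2.87, the highest of the 17 families on the count scale. On the log2(TPM + 1) scale it was 1.07, below the 1.41 of Kv3 and the 1.38 of Kv7.

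Of 12 tested sodium channel genes 9 were higher and 2 lower at E18.5 in ff. Scn2a, the main alpha subunit of immature excitatory axons, averaged 25.5 ± 2.45 TPM at E18.5 and 5.70 ± 0.958 TPM at E12.5 in ff (log2 fold change 2.51), and 18.4 ± 1.28 TPM at E18.5 and 5.39 ± 0.974 TPM at E12.5 in dcKO (1.98). Scn3a, the alpha subunit known for its embryonic expression, was also higher at E18.5 in ff, with a log2 fold change of 0.78.

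Of the other members lower at E18.5 in ff, Kcnk5, a two-pore-domain channel known from kidney and other epithelia, averaged 1.41 ± 0.360 TPM at E18.5 and 7.66 ± 2.06 TPM at E12.5, a log2 fold change of -2.55. Kcne3, an accessory subunit, had a log2 fold change of -2.15, Kcnj5, an inward rectifier opened by G proteins, of -1.12, and Kcne4 of -0.93. Kcnn1, a small-conductance calcium-activated channel, averaged 19.6 ± 2.03 TPM at E18.5 and 28.7 ± 1.11 TPM at E12.5 in ff (log2 fold change -0.46) and had a log2 fold change of -0.80 in dcKO. The call of Kcne4 was lost without E12.5 ff replicate 2 (log2 fold change -0.24, adjusted p = 0.53) and without E18.5 ff replicate 2. Between genotypes, 69 members were higher at E18.5 in both, 7 were lower in both and 1, Kcnk10, was called in opposite directions, at 0.18 in ff and -0.21 in dcKO. Its TPM averaged 19.5 in dcKO and 20.7 in ff at E18.5 against 21.1 in dcKO and 22.2 in ff at E12.5, which is slightly lower at E18.5 in both genotypes. The ff call was lost in 8 of 14 fits that each left out 1 library (adjusted p up to 0.13), and the dcKO call without E12.5 dcKO replicate 1 (adjusted p = 0.099). Both stage comparisons describe the same stages in different embryos, and the test of their difference is the interaction given further on.

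At E18.5, 39 of 93 members tested differed between dcKO and ff, 13 of them higher and 26 lower in dcKO, while 32.2% of all genes tested differed, 15.6% higher and 16.6% lower. The lowered members included the sodium channel genes Scn2a and Scn3b, 4 of 5 genes of the Kv7 family, which carries the M-current, and 3 of 4 tested subunits of the large-conductance calcium-activated (BK) channel. The raised ones included Kcnt1, which encodes a sodium-activated channel, and the voltage-gated Kcnh1, Kcnh4 and Kcnc2. The changes were moderate, with log2 fold changes of 0.19 to 0.94 (median 0.47) among the raised and -0.91 to -0.16 (median -0.42) among the lowered members, and 3 raised and 8 lowered by at least 1.5-fold. The median over all 93 was -0.08, against 0.03 over all genes. In this tissue, which mixes cell types, fewer cells of a type and less RNA per cell cannot be told apart. Values of the genotypes did not overlap for 35 of 93 members, against 33.3% of all genes. On the log2(TPM + 1) scale, where the median over all genes was 0.12, 11 members were higher and 12 lower, and 22 of the 39 calls held. None of the 39 turned its sign under any other scaling tried.

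**Figure D2:**
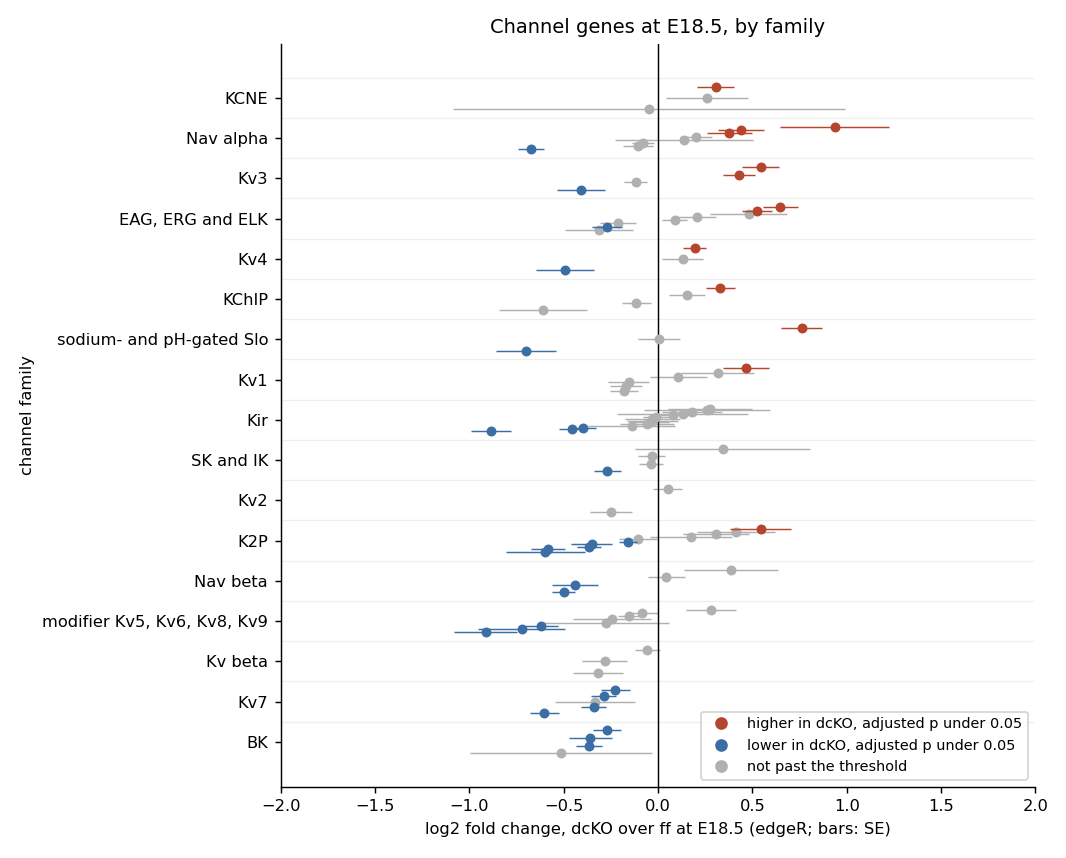
Log2 fold change of dcKO over ff at E18.5 (x axis, bars are SE) for each member tested, by channel family (y axis), in red where higher and blue where lower in dcKO at an adjusted p under 0.05, and grey otherwise. The Kv7 and BK families hold 4 and 3 lowered members and no raised one, while the Kv3 and EAG, ERG and ELK families hold 2 raised members and 1 lowered one each.

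Among sodium channel alpha subunits, Scn2a alone was lower. It stood at 67.4, 60.8, 71.5 and 64.6 CPM in dcKO libraries and at 113, 114, 97.6 and 97.3 CPM in ff libraries. The highest dcKO value was well under the lowest ff value, and the log2 fold change was -0.68 (SE 0.07, adjusted p = 2.3e-05). Scn3a, the alpha subunit with the highest mean TPM, averaged 93.3 ± 8.33 CPM in dcKO and 100.2 ± 9.88 CPM in ff, and the groups overlapped (adjusted p = 0.33). Scn8a, which replaces Scn2a at mature initial segments, averaged 54.6 ± 3.13 CPM in dcKO and 57.8 ± 2.87 CPM in ff (adjusted p = 0.32). Scn1a, the alpha subunit on which fast-spiking interneurons depend, stood at 22.6, 20, 22.8 and 21.3 CPM in dcKO libraries and at 20.6, 19.9, 16.2 and 18.5 CPM in ff libraries (adjusted p = 0.088). Scn9a and Scn11a, known best from sensory neurons, were called higher at log2 fold changes of 0.38 and 0.94, and each loses its call when single libraries are left out. This happened for Scn9a in 5 of 8 such fits (adjusted p up to 0.099) and for Scn11a, at under 1 CPM in every library, in 7 of 8 (up to 0.087). Scn4a and Scn7a, known from skeletal muscle and from sodium sensing, were too low to test at 0.05 TPM or less in every library of the study. Scn10a, of sensory neurons, was not called (adjusted p = 0.89).

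Of the 4 beta subunits 2 were lower, among them Scn3b, which had the highest level. It stood at 175, 172, 199 and 181 CPM in dcKO libraries and at 269, 257, 265 and 239 CPM in ff libraries. The groups lay apart, with a log2 fold change of -0.50 (SE 0.06, adjusted p = 7.3e-05). Scn2b averaged 16.8 ± 1.91 CPM in dcKO and 16.3 ± 1.60 CPM in ff (adjusted p = 0.77), and Scn4b was not called either (log2 fold change 0.39, adjusted p = 0.26). Summed over all 14 sodium channel genes, the level was 183, 176, 219 and 196 TPM in dcKO and 240, 241, 211 and 218 TPM in ff at E18.5, so that dcKO replicate 3 lay inside the ff range.

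The share of each gene in the alpha transcripts was also compared, and none passed after adjustment. Scn2a held 25.8%, 25.2%, 23.2% and 23.5% of the alpha TPM in dcKO and 33.3%, 31.3%, 34.9% and 30.5% in ff at E18.5. Its groups did not overlap, while the share of Scn3a was 40.5% in dcKO and 40.6% in ff. Scn8a held 19.4% ± 0.599 in dcKO and 15.9% ± 0.880 in ff, and Scn1a 8.03% ± 0.752 in dcKO and 5.93% ± 0.283 in ff (SD, n = 4 each). At E12.5 Scn2a held 15.2% in dcKO and 14.1% in ff. An exact two-sided permutation test gave p = 0.0286 for the shares of Scn2a, Scn8a and Scn1a at E18.5, the smallest that 4 against 4 allows. After adjustment over the 19 shares compared it was 0.0543, which is above 0.05. At that floor no share could pass, whatever its difference, unless most of the 19 did too. Shares within a family are parts of a whole, so a lower share of Scn2a raises the others.

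**Figure D3:**
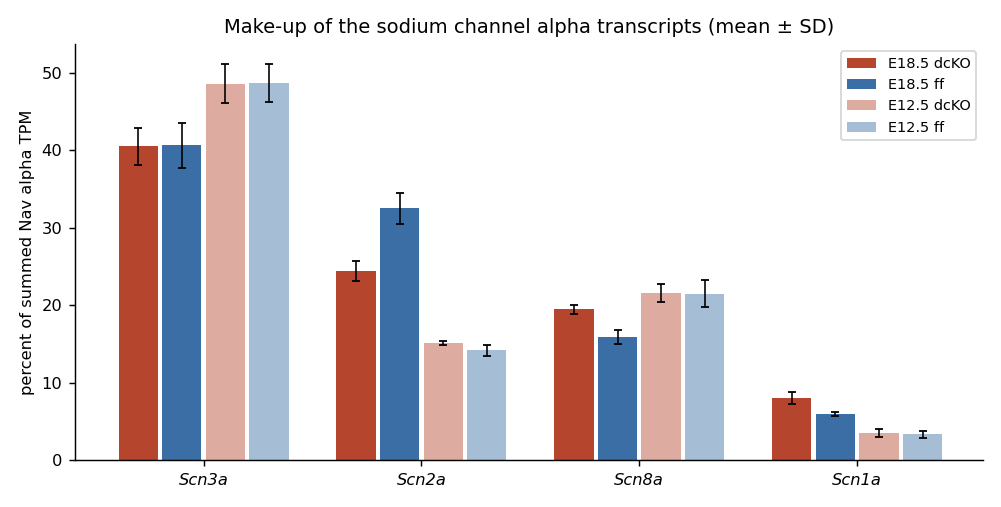
Share of the summed TPM of sodium channel alpha subunits (y axis, percent) held by the 4 genes with the largest shares, as mean ± SD over libraries (n = 4 each at E18.5, n = 3 each at E12.5). The Scn2a share at E18.5 is 24.4% in dcKO and 32.5% in ff, and the Scn8a share is 19.4% in dcKO and 15.9% in ff at that stage.

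Among voltage-gated potassium channels, 4 of 5 Kv7 genes and 3 of 8 silent subunits were lower, as was 1 gene each of the Kv3, Kv4 and EAG, ERG and ELK families. Kcnq5 stood at 21.3, 20.5, 20.9 and 21.8 CPM in dcKO libraries and at 27.3, 26.7, 28.4 and 24.6 CPM in ff libraries. All dcKO values lay below the ff values (log2 fold change -0.34, SE 0.06, adjusted p = 0.0018). Kcnq3 had a log2 fold change of -0.23 (adjusted p = 0.039), and its call was lost in 5 of 8 fits that left out a library (adjusted p up to 0.074). Neither gene was called on the TPM scale, where the Kcnq5 difference was -0.14 (exact permutation p = 0.057). Kcnv1 stood at 13.8, 15.7, 17.1 and 15.1 CPM in dcKO libraries and at 25.7, 25.3, 23.8 and 20.8 CPM in ff libraries. Its groups were separate (log2 fold change -0.62, SE 0.09, adjusted p = 0.00023). Kcns1, another silent subunit, averaged 2.19 ± 0.325 CPM in dcKO and 4.20 ± 0.692 CPM in ff, the lowest log2 fold change of the lowered members at -0.91 (SE 0.17, adjusted p = 0.0013).

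The Kv3, Kv4 and EAG, ERG and ELK families also held raised genes. Kcnh4, of the ether-a-go-go-like (ELK) channels of forebrain, stood at 25.4, 19.5, 23.2 and 23.8 CPM in dcKO libraries and at 16.3, 13.3, 14.3 and 14.4 CPM in ff libraries (log2 fold change 0.65, SE 0.09, adjusted p = 0.00026). Kcnh1, the ether-a-go-go channel itself, stood at 16.3, 17.4, 19.3 and 19.4 CPM in dcKO libraries and at 12.7, 13.4, 12.1 and 12.6 CPM in ff libraries (0.52, SE 0.08, adjusted p = 0.00039). For both genes every dcKO library was above every ff library. Kcnc2, a fast delayed rectifier that lets neurons fire at high rates, averaged 16.4 ± 0.622 CPM in dcKO and 11.2 ± 1.46 CPM in ff, with no overlap between libraries (log2 fold change 0.54, SE 0.10, adjusted p = 0.0012). Kcnc1, of the same family, had a log2 fold change of -0.12 and was not called, and Kcnc4 was lower at -0.41, a call lost in 3 of 8 fits that left out a library (adjusted p up to 0.064).

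Kcnip1, a partner of A-type channels found in interneurons among other cells, stood at 38.7, 43.5, 43.4 and 44.2 CPM in dcKO libraries and at 35.8, 31.2, 37.9 and 31.1 CPM in ff libraries. The groups came within 1 CPM of each other without overlapping (log2 fold change 0.33, SE 0.08, adjusted p = 0.0056), and the call did not hold in male libraries alone. Its share of the KChIP family's TPM was 51.5% ± 2.35 in dcKO and 41.8% ± 1.31 in ff. Kcnip3 held 14.1% in dcKO and 21.1% in ff but was not called (log2 fold change -0.61, adjusted p = 0.088). It stood at 20.2, 16.2, 20.5 and 15.1 CPM in dcKO libraries and at 33.7, 20.4, 34.9 and 19.6 CPM in ff libraries. The male ff replicates 1 and 3 were thus far above the female ff replicates 2 and 4. In dcKO, where all libraries were male, replicates 1 and 3 were also the higher ones. No test of sex itself was run for Kcnip3. Its values in the fits with sex as a covariate and in male libraries alone are not given here. Kcna3, a delayed rectifier also prominent in microglia and lymphocytes, had a log2 fold change of 0.47 (adjusted p = 0.012). Kcnd3, an A-type channel, and Kcne5, an accessory subunit, were called higher at 0.19 and 0.31, and both calls were lost in 5 of 8 fits that left out a library (adjusted p up to 0.11 in each). Kcne5 lies on chromosome X, and its call was also lost with sex as a covariate, in male libraries alone and with the length correction. In the first 2 of these settings, which called 31 and 29 members against 39, Kcnk5, Scn9a and Scn11a lost their calls too. Those genes lie on chromosomes 14, 2 and 9.

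Of the channels opened by internal ions, Kcnt1 stood out. This sodium-activated channel stood at 50.7, 36.4, 48.3 and 49.7 CPM in dcKO libraries and at 31.2, 24.9, 25.4 and 27.1 CPM in ff libraries. Even the lowest dcKO library, replicate 2, exceeded all ff libraries, and the log2 fold change was 0.76 (SE 0.11, adjusted p = 0.00035). The summed TPM of the Slo family to which it belongs was 39.2 ± 7.60 in dcKO and 26.6 ± 2.20 in ff. Kcnu1, a pH-gated channel known from sperm, was lower at under 6 CPM in every library (log2 fold change -0.70, adjusted p = 0.0055). The BK channel genes ran lower as well. Kcnmb4, the neuronal BK beta subunit, stood at 27.8, 27.6, 28.8 and 30.0 CPM in dcKO libraries and at 39.8, 33.9, 39.1 and 34.7 CPM in ff libraries, which did not overlap (log2 fold change -0.36, SE 0.07, adjusted p = 0.0018). Kcnmb4 shares 10.7% and 20.8% of its exon length with the antisense genes Kcnmb4os1 and Kcnmb4os2. Kcnma1, the BK pore, averaged 48.8 ± 3.48 CPM in dcKO and 58.7 ± 5.04 CPM in ff (log2 fold change -0.27, adjusted p = 0.014), and the groups overlapped slightly.

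Inward rectifiers and two-pore-domain channels, which hold the membrane near rest, included several of the larger decreases. Kcnj2 stood at 6.40, 9.80, 8.61 and 9.46 CPM in dcKO libraries and at 17.3, 15.8, 16.3 and 15.8 CPM in ff libraries. The shallow dcKO replicate 1 was the lowest, and the other dcKO libraries were also far below all ff libraries (log2 fold change -0.89, SE 0.11, adjusted p = 8.1e-05). Kcnj11, the pore of ATP-sensitive channels, averaged 17.1 ± 0.915 CPM in dcKO and 23.6 ± 0.954 CPM in ff (-0.46, SE 0.07, adjusted p = 0.00031). Kcnj3, a G protein-gated rectifier, had a log2 fold change of -0.40 (adjusted p = 0.0013) and shares 31.1% of its exon length with Gm26794. Kcnj10, the glial rectifier, averaged 23.0 ± 0.542 CPM in dcKO and 23.2 ± 1.81 CPM in ff, and was not called. Kcnk1 stood at 17.4, 16.5, 18.4 and 19.1 CPM in dcKO libraries and at 29.6, 24.9, 29.5 and 23.3 CPM in ff libraries, with no overlap (log2 fold change -0.58, SE 0.09, adjusted p = 0.00042). Kcnk10, a mechanosensitive channel, had a log2 fold change of -0.37 (adjusted p = 0.0011), which on the TPM scale was -0.09 (exact permutation p = 0.29). Kcnk5 was called higher (0.54, adjusted p = 0.022), with overlapping groups and a call lost in 5 of 8 fits that left out a library (adjusted p up to 0.074).

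**Figure D4:**
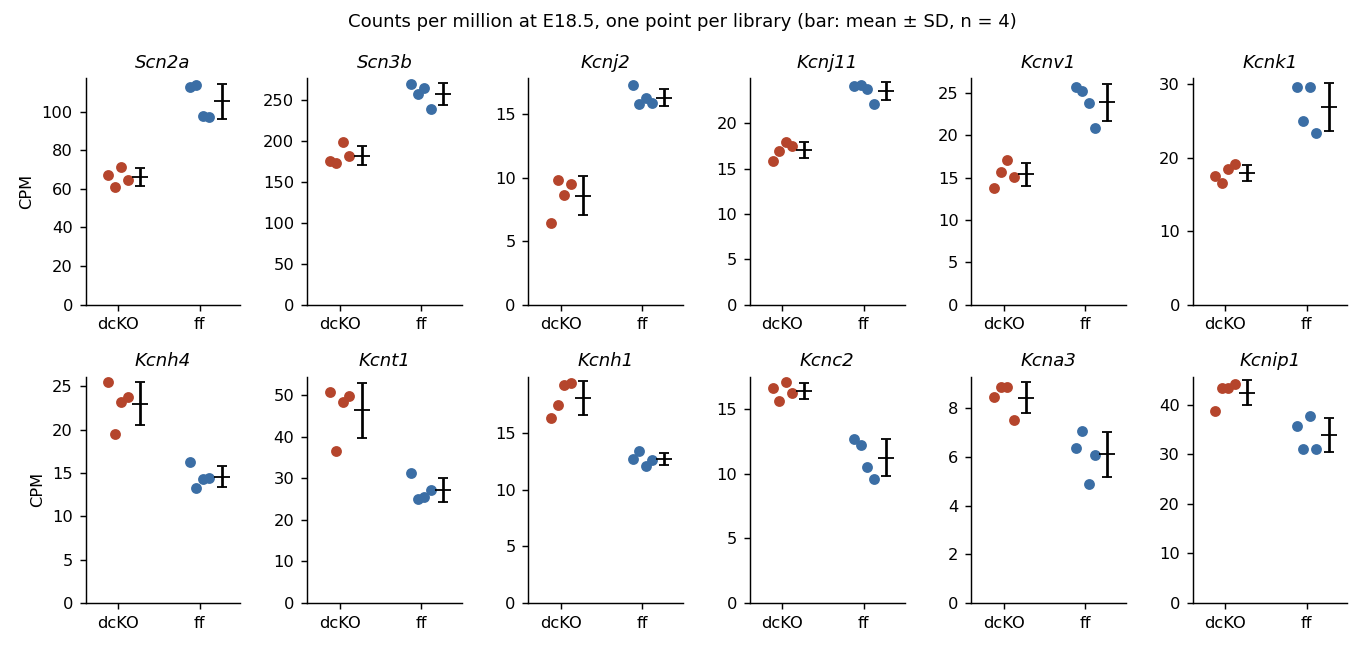
CPM at E18.5 of 6 lowered members (upper row) and 6 raised members (lower row), with 4 dcKO libraries on the left and 4 ff libraries on the right of each panel, 1 point per library, and the mean ± SD beside them. In each of the 12 panels the groups do not overlap, from Scn2a (60.8 to 71.5 CPM in dcKO, 97.3 to 114 CPM in ff) to Kcnip1 (38.7 to 44.2 CPM in dcKO, 31.1 to 37.9 CPM in ff). The 12 were picked among called members, of which 23 of 26 lowered and 9 of 13 raised ones do not overlap. Of all genes tested 33.3% do not.

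By family, the counts at E18.5 ran against 15.6% of all genes higher and 16.6% lower. Of sodium channel alpha genes 3 of 8 were raised and 1 lowered (median log2 fold change 0.17), of Kv3 genes 2 of 4 and 1 (0.16), and of EAG, ERG and ELK genes 2 of 8 and 1 (0.15). Of inward rectifiers 3 of 14 were lowered and none raised (-0.03, and 0.08 on the TPM scale). There were 4 lowered and none raised of 5 Kv7 genes, 3 lowered and none raised of 4 BK genes, 3 lowered and none raised of 8 silent subunits, and 5 lowered and 1 raised of 10 two-pore-domain genes. Medians of the last 4 families and of the beta subunits were below 0 under every scaling tried. On the main scale they ran from -0.36 for BK and -0.33 for Kv7 to -0.13 for the two-pore-domain genes. On the log2(TPM + 1) scale they were nearer 0, at -0.14 for Kv7, -0.11 for the beta subunits and -0.09 for BK. There the silent subunits were at -0.03 and the two-pore-domain genes at -0.01. On the TPM scale only 1 Kv7, 1 BK and 2 two-pore-domain genes were called lower, and all 3 silent subunits were. Kv2 and Kv beta had no call on the main scale. The Kv beta median was also below 0 under every scaling tried, at -0.28 on the main scale. With the length correction 1 of 2 Kv2 genes and 2 of 3 Kv beta genes were called lower, and on the TPM scale 1 Kv2 gene was called higher. Among the 12 lowered members with the highest p of the calls were Kcnn1, Kcnma1, Kcnh7, Kcnk2, Kcnk3, Kcnd1, Kcnc4, Kcnmb2, Kcns3, Kcnq3 and Kcnk4, at log2 fold changes of -0.72 to -0.16. Of these Kcnma1, Kcnd1, Kcnc4, Kcnmb2, Kcns3 and Kcnq3 are given after their values were seen. Except for Kcnn1 and Kcnma1, each of these lost its call in at least 1 of the 8 fits that left out a library. The most abundant members of several families were not called, among them Kcna6 (log2 fold change -0.18, adjusted p = 0.078), Kcng1 (-0.16, adjusted p = 0.053), Kcnab2 (-0.06) and Kcnh2 (0.09). Kcna6 encodes a delayed rectifier, Kcng1 a silent subunit, Kcnab2 a beta subunit and Kcnh2 an ether-a-go-go-related channel, and 39.6% of the exon length of Kcna6 also lies in Gm26673.

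Cell-type markers differed between the same libraries. Of 10 pan-neuronal markers 8 were lower and none higher in dcKO, and their summed level was 4545 to 5063 TPM in dcKO and 6421 to 6722 TPM in ff. Of 10 cortical projection neuron markers 8 were lower and 2 higher, with a sum of 840 to 982 TPM in dcKO and 1226 to 1398 TPM in ff, Neurod6 at a log2 fold change of -1.29. Of 12 ventral telencephalon and interneuron markers 10 were higher and 1 lower, with a sum of 1413 to 1539 TPM in dcKO and 977 to 1063 TPM in ff, Gad1 at 0.62 and Slc32a1 at 0.89. Of 12 radial glia and astrocyte markers 8 were higher (2465 to 2762 TPM in dcKO, 2277 to 2384 TPM in ff), and of 7 microglia markers 4 were (132 to 158 TPM in dcKO, 86.3 to 110 TPM in ff). Of 7 diencephalon markers 3 were higher and none lower, with a sum of 20.2 to 24.5 TPM in dcKO and 13.4 to 17.7 TPM in ff. Of 5 tested erythroid markers none was called, but their sums did not overlap either, at 386 to 1875 TPM in dcKO and 2358 to 4129 TPM in ff. No marker of these lists was at 0 in any group. The part of these lists in the channel differences, lowered or raised, was not tested.

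Genes that work with the channels were counted from lists of partners. Of 18 tested genes for anchors and further auxiliary subunits, 4 were lower and 1 higher in dcKO. Ank2 (log2 fold change -0.24), the ankyrin of the axon shaft, Nfasc (-0.23), an adhesion molecule of the initial segment and node, and Fgf13 (-0.42), which binds sodium channel tails, were among the lowered, and Cntnap2 (0.28), which clusters potassium channels beside the node, was the raised one. Ank3, the ankyrin that anchors sodium channels at the initial segment, was not called (-0.10, adjusted p = 0.34). Of 22 voltage-gated calcium channel genes 8 were lower and 4 higher, with Cacna2d1 at -0.61 and Cacna2d2 at 0.60, both auxiliary subunits. Of 7 pacemaker and sodium leak genes 2 were lower, Hcn4 (-0.20) among them, and 2 were higher, Nalcn (0.21) and Unc80 (0.36). Of 6 sodium pump genes 2 were lower, Atp1b1 among them at -0.22. None of 5 genes of the REST repressor, which silences many channel genes outside neurons, was called. These counts ran against 32.2% of all genes called at this stage.

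At E12.5 no member of 90 tested passed an adjusted p of 0.05 with edgeR, while 0.19% of all genes did. At an unadjusted p under 0.05 there were 12 members of 90, against 19.2% of all genes, and values of the genotypes did not overlap for 19 of 90, against 26.8% of all genes. DESeq2 called 6 members, against 6.77% of all genes, and limma-voom 2, against 1.15%. The largest difference by p was in Kcnh7, an ether-a-go-go-related channel of neurons. It stood at 11.6, 8.65 and 9.44 CPM in dcKO libraries and at 20.3, 16.2 and 16.8 CPM in ff libraries. The groups lay apart, and the log2 fold change of -0.83 (SE 0.14) had an adjusted p of 0.059. It did pass with DESeq2 (adjusted p = 0.00011), with limma-voom (adjusted p = 0.038), with no filter on low counts, in 1 fit of all libraries and without dcKO replicate 1 (adjusted p = 0.020). In the other 12 of 17 alternatives Kcnh7 did not pass, with a log2 fold change as small as -0.53 and an adjusted p up to 0.39.

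The next 5 members by p at E12.5 were also at lower values in dcKO. Kcng1, a silent subunit, stood at 10.7, 7.76 and 8.39 CPM in dcKO libraries and at 12.6, 17.9 and 11.8 CPM in ff libraries (log2 fold change -0.67, adjusted p = 0.12). Kcnb2, a delayed rectifier, had a log2 fold change of -0.70 and Kcnj10 of -0.62, each at an adjusted p of 0.12. Kcna1, at under 3 CPM in every library, had -1.05 (adjusted p = 0.14), and Kcnip3 -0.29 (adjusted p = 0.19). Kcne2, an accessory subunit named here after its values were seen, was higher by DESeq2 (log2 fold change 0.74, adjusted p = 0.0496) and limma-voom (1.03, adjusted p = 0.049) but not by edgeR (0.74, adjusted p = 0.21). Its groups overlapped, at 11.4, 10.6 and 11.5 CPM in dcKO libraries and 10.7, 4.35 and 6.51 CPM in ff libraries. Kcnh7 and the next 5 genes did not overlap between the groups, and the exact permutation test on TPM can go no lower than p = 0.1 with 3 against 3. The sodium channel genes lowered at E18.5 were at similar values in both groups here, Scn2a at 16.5 ± 3.13 CPM in dcKO and 18.5 ± 4.18 CPM in ff and Scn3b at 79.1 ± 5.87 CPM in dcKO and 73.2 ± 12.5 CPM in ff (SD, n = 3 each). Of 10 cortical projection neuron markers 2 were lower at this stage, with a sum of 272 to 330 TPM in dcKO and 393 to 529 TPM in ff, and its part in the values of Kcnh7 was not tested. Across genes the E12.5 fold changes also ran with transcript length, at a Spearman rho of -0.41 over all genes and -0.38 over the members, as a description of these libraries.

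Whether the dcKO to ff difference itself differed between stages was tested as an interaction in 1 fit of the 4 groups. It was called for 16 of 95 members, 5 with a higher and 11 with a lower log2 fold change at E18.5 than at E12.5, against 16.5% of all genes, 7.12% higher and 9.41% lower. The call held in each of 14 fits that left out 1 library for 4 of the 16, Kcnk1, Kcnmb4, Scn3b and Kcnj2, all on the lowered side. Kcnk1 had the lowest p. At E12.5 it stood at 5.76, 6.02 and 5.93 CPM in dcKO libraries and at 5.17, 5.11 and 4.83 CPM in ff libraries, so that dcKO, below ff at E18.5, lay slightly above it at E12.5 (interaction log2 fold change -0.87, SE 0.15, adjusted p = 0.0013). Kcnmb4 averaged 17.3 ± 0.296 CPM in dcKO and 14.5 ± 2.86 CPM in ff at E12.5, and its interaction was -0.72 (SE 0.14, adjusted p = 0.0028). For Scn3b it was -0.65 (SE 0.14, adjusted p = 0.0058) and for Kcnj2 -0.98 (SE 0.21, adjusted p = 0.0062), and the Scn3b call was lost on the TPM scale. For Scn2a the interaction was -0.54 (SE 0.20) and did not pass (adjusted p = 0.082).

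On the raised side were Kcna3, Kcna1, Kcnj10 and Kcnh7 among others, and each of these calls depended on single libraries. Kcna3 stood at 8.48, 8.89, 8.90 and 7.53 CPM in dcKO and at 6.38, 7.08, 4.89 and 6.10 CPM in ff at E18.5, and at 5.96, 3.58 and 3.92 CPM in dcKO and 8.68, 7.83 and 5.46 CPM in ff at E12.5. Every dcKO library was above ff at E18.5, while at E12.5 the groups overlapped and dcKO was mostly lower (interaction 1.09, SE 0.27, adjusted p = 0.013, and 0.051 without E12.5 dcKO replicate 2). Kcna1 and Kcnj10 lost the call in 7 and 8 of 14 such fits and Kcnh7 in 10. With the length correction Kcnj10 and Kcnh7 lost the call as well, while Kcna3 and Kcna1 kept it. For Kcnh7 the log2 fold change was -0.27 at E18.5 and -0.83 at E12.5.

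**Figure D5:**
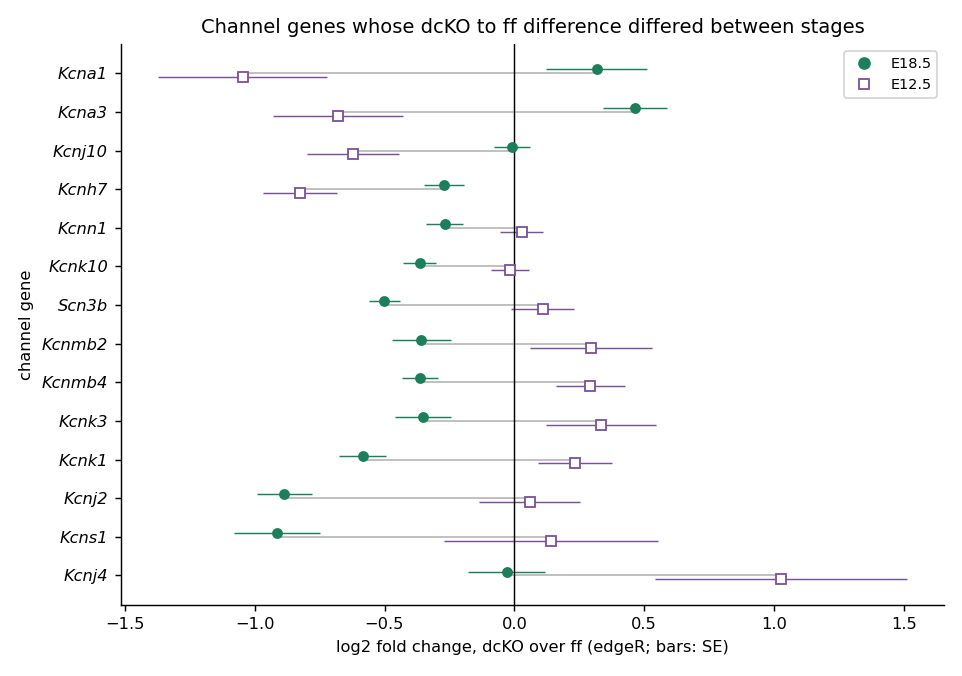
Log2 fold change of dcKO over ff (x axis, bars are SE from edgeR) at E18.5 (filled circles) and E12.5 (open squares) for 14 of the 16 channel genes whose genotype by stage interaction was called. For Kcnk1, Kcnmb4, Scn3b and Kcnj2 the circles lie between -0.89 and -0.36 and the squares between 0.06 and 0.29.

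The sequence before the start site is shown for 4 members that moved at E18.5, as context for genes that differ from each other there in base composition. RefSeq promoters (build GRCm38.p6) matched 77 of 107 members by symbol, and the 250 bases upstream of each start were searched on both strands. The GC box GGGCGG, the motif of Sp factors, was found in 41 of 77 members (53.2%) and in 35.4% of 27025 genes, in 6 of 9 raised and 11 of 16 lowered members with a promoter and in 20 of 40 members not called. TATAAA was found in 4 of 77 members, Scn2a among them, and in 14.3% of all genes. TTCAGCACC, the left part of the site of the neuronal repressor REST, was found in 1 of 77, Kcnh6, and in 0.348% of all genes. The 3 motifs do not overlap one another in letters, and a match is a description, not a bound site. The 100 bases before the start are shown for the lowered Scn2a (with 2 starts listed) and Kcnj2 and the raised Kcnh4 and Kcnh1, with matches in capitals on the strand of the gene.
Scn2a, start 1, chr2:65620669-65620768, plus strand: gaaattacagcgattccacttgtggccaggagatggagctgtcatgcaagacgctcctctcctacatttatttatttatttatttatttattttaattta
Scn2a, start 2, chr2:65668586-65668685, plus strand: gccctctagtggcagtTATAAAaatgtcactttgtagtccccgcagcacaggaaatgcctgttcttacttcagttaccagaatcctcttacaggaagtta
Kcnj2, chr11:111066064-111066163, plus strand: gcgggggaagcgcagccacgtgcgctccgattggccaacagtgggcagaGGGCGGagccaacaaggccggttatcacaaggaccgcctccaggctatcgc
Kcnh4, chr11:100759779-100759878, minus strand: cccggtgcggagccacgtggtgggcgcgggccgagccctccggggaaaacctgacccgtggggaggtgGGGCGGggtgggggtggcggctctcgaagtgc
Kcnh1, chr1:192190677-192190776, plus strand: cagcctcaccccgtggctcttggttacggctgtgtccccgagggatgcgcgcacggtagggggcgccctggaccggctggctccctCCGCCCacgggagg
The Scn2a stretch at start 1 is 34.0% G or C and that at start 2 is 44.0%, while those of Kcnj2, Kcnh4 and Kcnh1 are 67.0%, 77.0% and 74.0%. Over the 250 bases upstream the median was 62.0% in raised and 60.1% in lowered members, against 58.8% in members not called and 52.4% in all genes.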

How the data were processed

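Per the labels' protocols, extraction used RNeasy Mini columns and library preparation the TruSeq Stranded mRNA kit. Trim Galore, STAR, RSEM and DESeq2 were used, per the submitters' processing notes, with no versions. The genome build, annotation and counting strand are not given in the sources used here. The expected count and TPM values per gene were deposited by the authors, with TPM scaled to transcript length and library. The log2 fold change and p-value columns were deposited by the authors from DESeq2, and were used only to check signs and calls. At an adjusted p under 0.05 they held 38 of the 39 members called here at E18.5. At E12.5 they held 5 members, all lower in dcKO and none called here, Kcnh7 among them (adjusted p = 0.00021).

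Expected counts were rounded, filtered with filterByExpr, scaled by TMM and tested with edgeR 4.0.16 (R 4.3.3; robust quasi-likelihood F test, Benjamini-Hochberg over all genes, threshold 0.05), each stage in its own fit. The interaction and stage comparisons came from 1 fit of all 14 libraries. CPM are TMM-scaled within a stage, and SD is between libraries. Tests are two-sided. Exact permutation tests used log2(TPM + 1). Of 107 members, 90 were tested at E12.5, 93 at E18.5 and 95 in the fit of all libraries. Replicate numbers follow column order, and nothing says that libraries came from separate litters, so p-values measure the spread between these samples. Sex was taken from Xist and chromosome Y genes.

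The members, families, marker and partner lists were chosen with earlier results of these data known. Named genes were, by lowest p, the 6 first members at E12.5 and up to 14 called per direction at E18.5 and 6 for the interaction, up to 6 called per direction by fold change between stages in ff (at least 1 TPM in the higher group), the most abundant of each family and all sodium channel genes. Kcnq3, Kcnma1, Kcnc4 and members given as chosen later stand outside that rule. Exon overlaps came from GENCODE M21, where 29 of 107 members share exonic bases with another gene, 27 of them on the opposite strand.

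Alternatives were DESeq2 1.42.0 (size factors, Wald test), upper quartile scaling, limma 3.58.1 (voom, log2(TPM + 1)), other filters, sex, a length correction, 1 fit of all libraries, a fold change of at least 1.5 and each library left out. Male libraries alone and E18.5 dcKO replicates 2 and 4 alone were added after the data were seen. The steps were tested on simulated data. Results on some genes that the rule names are not reported here.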

Additional observations from a re-analysis of the deposited data

Results flagged for a closer look

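In 6 of 88 groups of 4 libraries checked at E18.5, 1 library stood further from the others than Dixon's test allows, and chance gives about 1 in 20 such groups. Those of 3 genes are given here. For Kcnab2, dcKO replicate 1 was at 29.1 CPM and the other dcKO libraries at 32.5 to 33.1 CPM. For Kcnip1 the same library was at 38.7 CPM and the others at 43.4 to 44.2 CPM. That library is the shallow one. For Kcnt1, dcKO replicate 2 was at 36.4 CPM and the other dcKO libraries at 48.3 to 50.7 CPM. The calls of Kcnip1 and Kcnt1 held in every fit that left out 1 library.

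The dcKO to ff difference differed between E18.5 and E12.5 by the interaction term for 10 members given here. The interaction log2 fold change was 1.09 for Kcna3, 1.29 for Kcna1, 0.56 for Kcnj10 and 0.50 for Kcnh7. It was -0.87 for Kcnk1, -0.72 for Kcnmb4, -0.65 for Scn3b, -0.98 for Kcnj2, -0.39 for Kcnk10 and -0.73 for Kcnk3. Kcnk10 lost its call on the TPM scale and without E12.5 dcKO replicate 1 (values up to -0.02, adjusted p up to 0.94). Kcnk3 lost its call in 6 of 26 alternatives, TPM and male libraries alone among them (adjusted p up to 0.12). E18.5 was cortex and E12.5 telencephalon, so stage and dissected tissue cannot be told apart in these values.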

How the results depend on the processing

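No paired analysis was possible because the replicate numbers of the table columns do not run across genotypes. At E12.5, where no member was called, DESeq2 called 6, limma-voom 2, no filter on low counts 1 and 1 fit of all libraries 5, and fits that left out 1 library called 0 to 2. At E18.5, against 39, limma on log2(TPM + 1) called 23 and a fold change of at least 1.5 called 11. Leaving out 1 library gave 27 to 38 calls, the fewest without ff replicate 1. Male libraries alone gave 29, sex as a covariate 31, dcKO replicates 2 and 4 alone 35 and 1 fit of all libraries 28. The split of raised and lowered members was 13 to 26, against 12 to 36 with the length correction and 11 to 12 on the TPM scale. For the interaction, against 16, no filter gave 10, TPM 8, male libraries alone 10 and E18.5 dcKO replicates 2 and 4 alone 9, and leaving out 1 library gave 7 to 18, the fewest without E12.5 dcKO replicate 2. The interaction split of raised and lowered members was 5 to 11, against 2 to 12 with the length correction and 4 to 4 on the TPM scale. The cause of these shifts was not tested. Between stages, leaving out 1 library gave 78 to 86 calls in ff (84 with all) and 77 to 82 in dcKO (80 with all), and no other alternative moved either count by more than 1.5 times. Of 1224 values for single named genes under the alternatives, 1100 kept their direction and side of the threshold, 113 lost the call, 11 gained one and 0 turned round. Depth limits E18.5 dcKO replicate 1 and E12.5 ff replicate 1 most, with members under 1 CPM resting on few reads there.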

Other observations

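A member known from choroid plexus was nearly absent from 1 library, and it was picked after its values were seen. Kcne2, an accessory subunit of potassium channels with high expression in that epithelium, stood at 28.6, 24.3, 0.07 and 17.3 TPM in E18.5 dcKO libraries and at 16.1, 12.5, 13.2 and 21.7 TPM in E18.5 ff libraries. It was not called (log2 fold change -0.05, SE 1.04, adjusted p = 0.98). Kcnj13, an inward rectifier of the same epithelium that shares 49.1% of its exon length with Gigyf2, stood at 8.19, 7.96, 2.84 and 7.66 TPM in dcKO and at 6.15, 3.45, 4.51 and 6 TPM in ff. In dcKO replicate 3, where both were lowest, summed TPM of 7 choroid plexus markers was 11.9, against 1463 to 2554 in ff. Outside these, dcKO replicate 3 had the highest sum of sodium channel transcripts of the dcKO libraries, at 219 TPM.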
